A study of Mus musculus with 16 samples.

Results

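Hmox1, Nqo1, Gclc, Gclm, Txnrd1, Srxn1, Slc7a11, Mt1 and Mt2 are genes that cells raise under oxidative or metal stress. They were chosen by name, as the genes whose symbol appears beside a probe of the arrays, and the 9 genes are 9 of 34836 gene names on the array and 9 of the 20317 that had enough signal to be tested. They were read with 11 probes, of which Mt1 and Hmox1 have 2 each. All RNA came from cells that grew out of muscle satellite cells, the stem cells of skeletal muscle, of male C57Bl/6J mice aged 11-13 weeks, with no other genotype or agent in the labels. Dispersed myoblasts had been taken off the fiber and grown on gelatin-coated plates, so that they lacked their niche, and 1 mouse was used per preparation. Myofiber-associated myoblasts had stayed on cultured single muscle fibers and were removed with trypsin just before lysis, and 2 mice were used per preparation. Each culture was lysed 48 hr or 72 hr after isolation, which gave 4 groups of 4 one-color Agilent arrays. Replicate 4 of the myofiber-associated 48 hr group was a pool of 2 preparations, and the labels give myofibres as the source of the dispersed samples too. The comparisons ask how the genes changed from 48 to 72 hr, when the cells leave the cell cycle, whether the change differed between the cultures, and how the cultures differed at each time.

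NRF2 is a transcription factor that KEAP1 holds at a low level until oxidants or electrophiles modify KEAP1. NRF2 then binds antioxidant response elements and raises enzymes that make glutathione, reduce quinones, degrade heme and regenerate thioredoxin and peroxiredoxins. Mt1 and Mt2 encode metallothioneins, small cysteine-rich proteins that bind zinc and copper, and the zinc-sensing factor MTF1 raises them through metal response elements, as glucocorticoids and oxidants also do. In muscle, metallothioneins are known to rise in wasting, and NRF2 and glutathione take part in the response of fibers and satellite cells to injury.

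The promoters of Mt1, Mt2 and Srxn1 are shown because the metallothioneins carried the calls between 48 and 72 hr and Srxn1 had the largest difference of the other 7 members in the myofiber-associated cultures. They are RefSeq sequences of build GRCm38.p6, the 250 bases before the annotated start, 5′ to 3′ on the strand of the gene, which is the plus strand for each. Capitals mark every match, on either strand, to TGCACNC or TGCGCNC (the core of the metal response element), TGACNNNGC (the core of the antioxidant response element) or TGACTCA (a core that some antioxidant response elements contain). A match is a description of these letters only.
Mt1, chr8:94178839-94179088: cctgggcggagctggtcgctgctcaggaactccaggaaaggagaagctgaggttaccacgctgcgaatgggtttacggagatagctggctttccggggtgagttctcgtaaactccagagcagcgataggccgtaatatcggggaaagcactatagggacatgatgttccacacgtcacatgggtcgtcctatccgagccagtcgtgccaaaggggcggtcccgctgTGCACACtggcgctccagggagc
Mt2, chr8:94172368-94172617: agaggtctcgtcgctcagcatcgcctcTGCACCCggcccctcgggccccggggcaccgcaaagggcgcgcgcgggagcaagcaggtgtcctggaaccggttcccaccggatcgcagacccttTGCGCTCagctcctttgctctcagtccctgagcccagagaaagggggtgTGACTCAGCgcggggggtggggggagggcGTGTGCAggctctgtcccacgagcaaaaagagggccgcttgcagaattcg
Srxn1, chr2:152105274-152105523: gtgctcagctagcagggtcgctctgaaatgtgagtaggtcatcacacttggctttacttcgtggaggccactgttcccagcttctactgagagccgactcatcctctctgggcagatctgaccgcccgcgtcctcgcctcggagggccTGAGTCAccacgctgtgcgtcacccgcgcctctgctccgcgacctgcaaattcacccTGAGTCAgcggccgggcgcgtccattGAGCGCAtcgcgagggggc
Before its start, Mt1 held 1 metal response element core, which began at 23 bases. Mt2 held 3, at 223, 128 and 50 bases before the start, and a TGACTCAGC at 79 bases that matches both of the other letter patterns. Srxn1 held TGACTCA on the reverse strand at 102 and at 45 bases before the start and a metal response element core at 19 bases. In the 250 bases before the start, the metal response element core stood at least once in 21.4% of the 32851 promoters of the table. It stood at least 2 times in 5.17% and at least 3 times in 1.26%. In those same 250 bases the antioxidant response element core stood in 10.2%, TGACTCA in 4.46%, and at least 2 copies of TGACTCA in 0.167%. Shares over the 300 bases from 250 before to 50 after the start were not computed. Over those 300 bases Mt1 held 3 metal response element cores, Mt2 4, Gclm 3 and Srxn1 1. Srxn1 also held 1 antioxidant response element core, after its start. Promoters were found for 7 of the 9 genes. Among the others, Gclm held 2 metal response element cores and 1 antioxidant response element core before its start, 1 of the 3 Txnrd1 windows held 1 antioxidant response element core, and these letters were in none of the windows of Nqo1 and Slc7a11.

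Each array had between 54.0% and 63.5% of its probes well above background. All 11 probes of the 9 genes were well above background on all 16 arrays and none was saturated. Values below are normalized log2 signals, set to a common distribution over the 16 arrays, and are compared for 1 probe between arrays, never between probes. Each culture lay on a slide of its own, and the slide and the culture cannot be told apart. Also, on both slides the 72 hr arrays lay in other columns than the 48 hr arrays, so the column and the time cannot be told apart either. The median gene had an SD of 0.09 and 0.10 in the dispersed groups and of 0.22 and 0.18 in the myofiber-associated groups at 48 and 72 hr, so a given difference was harder to call in the latter. A gene was called where limma's adjusted p over the 20317 genes was under 0.01. Some list counts below use an unadjusted limma p under 0.05, and the share of all genes at that threshold was not computed. Between the times in myofiber-associated cultures, 4585 of the 20317 genes had an adjusted p under 0.05. At least as many therefore had an unadjusted p under 0.05. Of 12 myoblast markers, 12 were well above background on every array. The summed signal of 12 adult fiber genes, such as the fast myosins and muscle creatine kinase, was 11372 to 51026 in the dispersed arrays, 1554950 to 2210370 in the myofiber-associated 48 hr arrays and 300417 to 1475510 in those at 72 hr. In such bulk samples, fewer cells of a type and less RNA per cell cannot be told apart.

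From 48 to 72 hr in dispersed cultures, the metallothionein genes Mt1 and Mt2 fell and none of the other 7 genes was called. All 9 differences were below 0, with a median of -0.40 against 0.02 over all genes, and 2 of 9 were called lower where 13.7% of all genes were called (6.32% lower and 7.38% higher). In myofiber-associated cultures Mt1 fell and no other member was called, 8 of 9 differences were below 0 with a median of -0.96 against 0.06 over all genes, and 5.48% of all genes were called (1.74% lower and 3.74% higher). All values of one time lay outside those of the other for 3 of the 9 genes in dispersed cultures and for 4 in myofiber-associated cultures, where 31.2% and 26.3% of all genes did so. Between the cultures the change differed for 1 of 9 genes, Mt1, where 3.45% of all genes were called, 1.09% in its direction and 2.36% in the other.

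**Figure D1:**
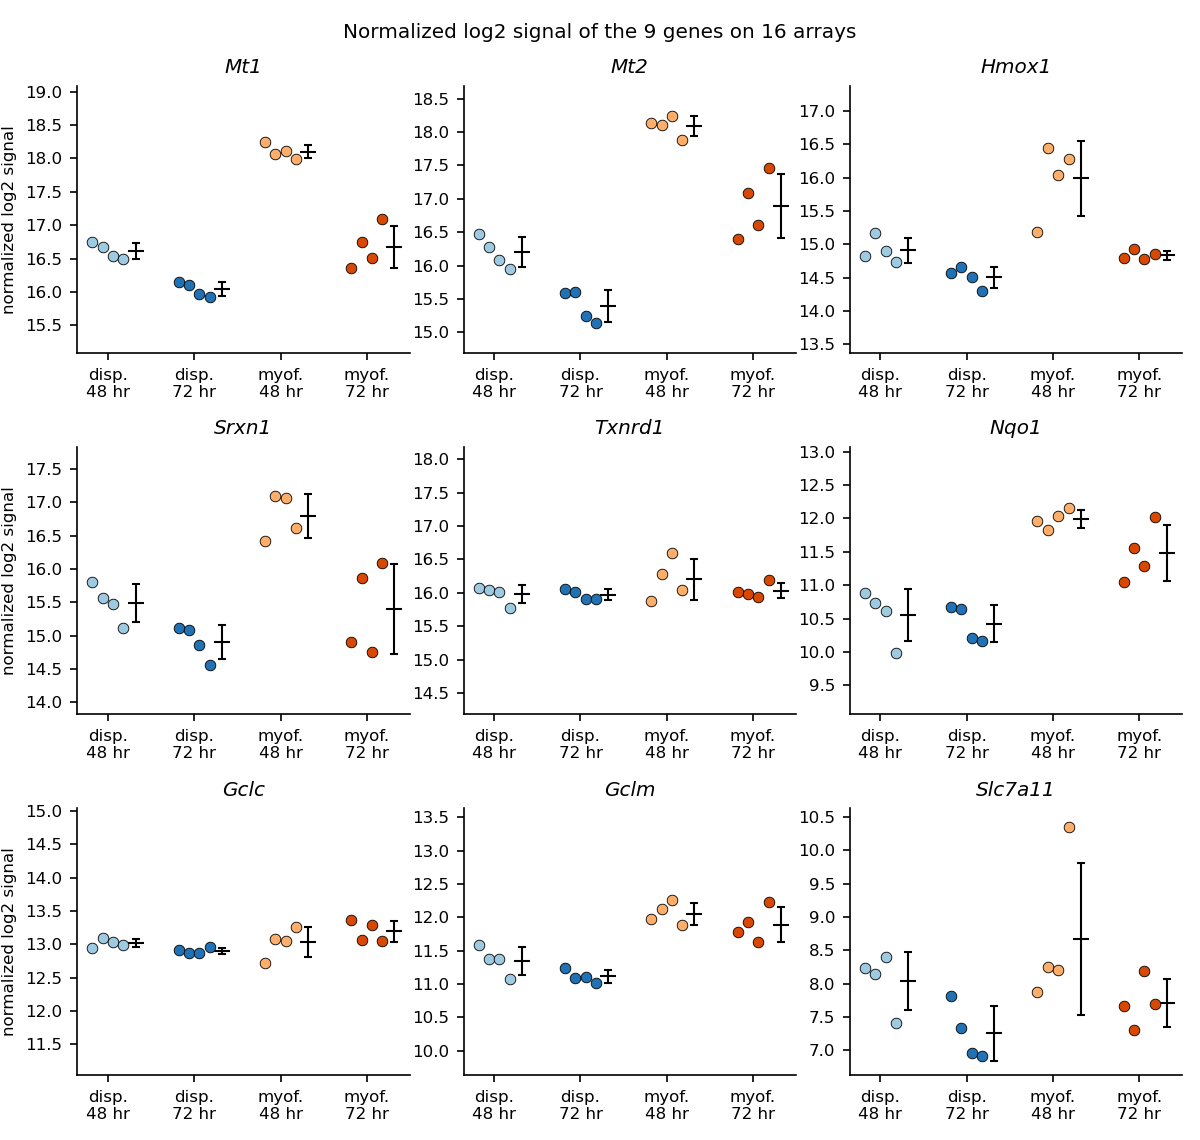
Normalized log2 signal (vertical axis, every panel spanning 4 log2 units) of the 9 genes on the 16 arrays, grouped by culture (disp., dispersed; myof., myofiber-associated) and time, with 1 point per array and the mean ± SD of 4 arrays beside it. Mt1 and Mt2 lay highest in the myofiber-associated 48 hr arrays, at 17.88 to 18.24, while Gclc and Txnrd1 overlapped between the times in both cultures.

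Mt1 was measured in dispersed cultures at 16.75, 16.67, 16.54 and 16.50 at 48 hr and at 16.15, 16.11, 15.97 and 15.93 at 72 hr. Every 72 hr array was below every 48 hr array, and the arrays of each time lay close together. In myofiber-associated cultures the Mt1 signals were 18.24, 18.07, 18.11 and 18.00 at 48 hr and 16.35, 16.75, 16.50 and 17.09 at 72 hr. Again the times did not overlap, and at 72 hr replicates 2 and 4 were the higher arrays. Mt1 fell by 0.58 on the log2 scale in dispersed cultures (SE 0.08, 1.49-fold, limma adjusted p = 0.00126). In myofiber-associated cultures it fell by 1.43 (SE 0.16, 2.70-fold, limma adjusted p = 0.00164). Both calls remained when any 1 array was left out. The fall in myofiber-associated cultures was the larger by 0.85 (SE 0.18, 95% interval 0.47 to 1.24, limma adjusted p = 0.00958). That call was close to the threshold: it remained without replicate 4 of the myofiber-associated 48 hr or 72 hr group, and without any other 1 of the 16 arrays the adjusted p was 0.0132 to 0.0245, with a difference of 0.75 to 0.90. It was also lost under 5 of 9 other settings (adjusted p = 0.0101 to 0.551). In order of their means the groups were myofiber-associated 48 hr, myofiber-associated 72 hr, dispersed 48 hr and dispersed 72 hr, and the middle pair overlapped.

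Mt2 gave 16.47, 16.28, 16.08 and 15.95 in the dispersed 48 hr arrays and 15.59, 15.61, 15.24 and 15.14 in those at 72 hr, with no overlap. Its signals in the myofiber-associated arrays were 18.13, 18.10, 18.24 and 17.88 at 48 hr and 16.40, 17.08, 16.60 and 17.46 at 72 hr. These did not overlap either, and replicates 2 and 4 were again the higher of the 72 hr arrays. Mt2 fell by 0.80 in dispersed cultures (SE 0.15, 1.74-fold, limma adjusted p = 0.00588). This call was lost when replicate 1, 2 or 3 of the 48 hr group or replicate 3 or 4 of the 72 hr group was left out, with a log2 difference of -0.71 to -0.84 and an adjusted p of 0.0124 to 0.0206, and under 3 of 10 other settings (adjusted p = 0.0104 to 0.0191). In myofiber-associated cultures the log2 means of Mt2 differed by -1.20 (SE 0.22, 2.30-fold, limma adjusted p = 0.0102), just outside the threshold, and without replicate 4 of the 72 hr group by -1.39 (adjusted p = 0.00364). The changes of Mt2 in the 2 cultures differed by 0.40 (SE 0.28, limma adjusted p = 0.326). The group order for Mt2 was that of Mt1, and myofiber-associated 72 hr and dispersed 48 hr overlapped by 1 array.

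At 48 hr 6 of the 9 genes were higher in myofiber-associated than in dispersed myoblasts, namely Mt2, Mt1, Nqo1, Srxn1, Hmox1 and Gclm, where 43.2% of all genes were called (16.1% higher and 27% lower). At 72 hr 3 were called higher, Mt2, Nqo1 and Gclm, where 27.1% of all genes were called (11.5% higher and 15.6% lower). The differences were above 0 for all 9 genes at both times, with a median of 1.08 at 48 hr and 0.49 at 72 hr against -0.12 and -0.02 over all genes. The cultures did not overlap for 6 of the 9 genes at each time, where 56% and 46.5% of all genes did not. Mt2 was 3.71-fold higher at 48 hr (log2 1.89, SE 0.13, limma adjusted p = 1.38e-05) and 2.81-fold higher at 72 hr (log2 1.49, SE 0.24, limma adjusted p = 0.00168). Mt1 was 2.81-fold higher at 48 hr (log2 1.49, SE 0.09, limma adjusted p = 6.91e-06). At 72 hr the log2 means of Mt1 differed by 0.63 (SE 0.15, limma adjusted p = 0.0113) with every myofiber-associated array above every dispersed array, and without replicate 1 of the myofiber-associated group by 0.74 (adjusted p = 0.00674). The relatives Mt3 and Mt4 were looked at after the values of Mt1 and Mt2 had been seen: Mt3 was higher in myofiber-associated myoblasts by 1.69 at 48 hr and by 1.47 at 72 hr, and Mt4 by 2.38 at 48 hr, with neither called between the times. How far probes for these related sequences read each other's transcripts was not tested.

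Hmox1 encodes the inducible heme oxygenase, which opens the heme ring and releases iron, carbon monoxide and biliverdin. Its signals were 14.83, 15.18, 14.90 and 14.73 in the dispersed 48 hr arrays and 14.57, 14.66, 14.51 and 14.29 in those at 72 hr. In myofiber-associated cultures they were 15.19, 16.45, 16.04 and 16.28 at 48 hr and 14.79, 14.92, 14.78 and 14.86 at 72 hr. The 72 hr arrays lay below all 48 hr arrays in each culture, and replicate 1 of the myofiber-associated 48 hr group stood well below its 3 companions, level with the highest dispersed array. The log2 means differed by -0.40 in dispersed cultures (SE 0.11, limma adjusted p = 0.0311). The difference was -1.15 in the myofiber-associated cultures (SE 0.25, 2.22-fold, limma adjusted p = 0.0174), and neither was called. Without the low replicate 1 the myofiber-associated difference was -1.42 (adjusted p = 0.00329) and the gap between the cultures' changes went from 0.75 (adjusted p = 0.0867) to 1.02 (adjusted p = 0.00397). At 48 hr Hmox1 was 2.12-fold higher in myofiber-associated myoblasts (log2 1.08, SE 0.26, limma adjusted p = 0.00712). This call was kept when replicate 1 of the myofiber-associated group was left out and lost without any other 1 of the 8 arrays (log2 0.93 to 1.17, adjusted p = 0.0122 to 0.0221), and it was lost under 3 of 9 other settings (adjusted p = 0.0104 to 0.0175). At 72 hr the cultures differed by 0.33 (SE 0.09, limma adjusted p = 0.0163), with no overlap.

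Srxn1 encodes sulfiredoxin, which restores overoxidized peroxiredoxins. It was measured at 15.80, 15.57, 15.48 and 15.12 in dispersed 48 hr arrays and at 15.12, 15.09, 14.86 and 14.57 at 72 hr, which met at 15.12. The myofiber-associated signals were 16.41, 17.09, 17.06 and 16.62 at 48 hr and 14.90, 15.86, 14.75 and 16.09 at 72 hr. These times did not overlap, and at 72 hr the arrays fell into a lower pair, replicates 1 and 3, and a higher pair, replicates 2 and 4. The log2 means of Srxn1 differed by -0.58 in dispersed cultures (SE 0.17, limma adjusted p = 0.0367). Between the myofiber-associated groups the difference was -1.39 (SE 0.33, 2.63-fold, limma adjusted p = 0.0219), and neither was called. At 48 hr Srxn1 was 2.47-fold higher in myofiber-associated myoblasts (log2 1.30, SE 0.20, limma adjusted p = 0.000716). At 72 hr the cultures overlapped and differed by 0.49 (95% interval -0.23 to 1.22, limma adjusted p = 0.230).

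Txnrd1 encodes cytosolic thioredoxin reductase, the selenoenzyme that keeps thioredoxin reduced. Its signal lay between 15.77 and 16.07 in the dispersed 48 hr arrays and between 15.90 and 16.06 at 72 hr. The range was 15.88 to 16.59 in the myofiber-associated 48 hr arrays and 15.93 to 16.19 at 72 hr, so all 4 groups overlapped. From 48 to 72 hr the log2 means differed by -0.0035 in dispersed cultures (95% interval -0.18 to 0.17) and by -0.17 in myofiber-associated cultures (95% interval -0.53 to 0.19). The cultures differed by 0.22 at 48 hr (95% interval -0.13 to 0.58) and by 0.06 at 72 hr (95% interval -0.12 to 0.23). No Txnrd1 comparison was called, and in dispersed cultures the sign of its difference turned with the scaling (0.07 where arrays were scaled to their upper quartile).

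Nqo1 encodes a quinone reductase that is widely used as an NRF2 marker. The dispersed signals were 10.88, 10.73, 10.61 and 9.99 at 48 hr and 10.67, 10.65, 10.21 and 10.16 at 72 hr, and the times overlapped. The myofiber-associated signals were 11.96, 11.83, 12.03 and 12.15 at 48 hr and 11.05, 11.55, 11.29 and 12.02 at 72 hr. Every myofiber-associated array lay above every dispersed array, and at 72 hr replicate 4 reached the level of the 48 hr arrays. Between the times the log2 means differed by -0.13 in dispersed cultures (95% interval -0.62 to 0.36) and by -0.52 in myofiber-associated cultures (95% interval -0.97 to -0.06, limma adjusted p = 0.0896). Nqo1 was 2.71-fold higher in myofiber-associated myoblasts at 48 hr (log2 1.44, SE 0.19, limma adjusted p = 0.000343) and 2.08-fold higher at 72 hr (log2 1.06, SE 0.22, limma adjusted p = 0.00609). The call at 72 hr was lost without replicate 2 of the myofiber-associated group or without any 1 dispersed array (log2 0.97 to 1.14, adjusted p = 0.0113 to 0.0206) and under 2 of 9 other settings (adjusted p = 0.0113 and 0.0141).

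Gclc and Gclm encode the catalytic and the modifier subunit of glutamate-cysteine ligase, the rate-limiting enzyme of glutathione synthesis, and the 2 subunits differed in pattern. Gclm was at 11.58, 11.38, 11.37 and 11.07 in dispersed 48 hr arrays and at 11.25, 11.09, 11.10 and 11.02 at 72 hr, which overlapped. In myofiber-associated arrays it was at 11.97, 12.12, 12.25 and 11.88 at 48 hr and at 11.78, 11.93, 11.63 and 12.23 at 72 hr, which overlapped as well, and all 8 lay above all 8 dispersed arrays. Gclm was 1.63-fold higher in myofiber-associated myoblasts at 48 hr (log2 0.71, SE 0.13, limma adjusted p = 0.00178) and 1.71-fold higher at 72 hr (log2 0.78, SE 0.13, limma adjusted p = 0.00204), and both calls remained without any 1 array. Its differences between the times were -0.23 in dispersed (95% interval -0.47 to 0.01) and -0.16 in myofiber-associated cultures (95% interval -0.50 to 0.17). Gclc, by contrast, lay between 12.95 and 13.09 in dispersed 48 hr arrays, 12.86 and 12.95 at 72 hr, 12.73 and 13.26 in myofiber-associated 48 hr arrays and 13.05 and 13.36 at 72 hr. No Gclc comparison was called. It was the only member above 0 between the times in myofiber-associated cultures (0.16, 95% interval -0.15 to 0.47), and the cultures differed by 0.02 at 48 hr (95% interval -0.25 to 0.28) and by 0.29 at 72 hr (95% interval 0.09 to 0.49, limma adjusted p = 0.0257).

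Slc7a11 encodes the transport subunit of the cystine-glutamate exchanger, which supplies cysteine for glutathione, and its SD of 1.13 in the myofiber-associated 48 hr group was the largest of any of the 9 genes and 4 groups. It was measured at 8.23, 8.14, 8.39 and 7.41 in dispersed 48 hr arrays and at 7.81, 7.33, 6.96 and 6.91 at 72 hr. The myofiber-associated signals were 7.88, 8.24, 8.20 and 10.35 at 48 hr and 7.66, 7.31, 8.19 and 7.70 at 72 hr. All groups overlapped with their neighbors, and replicate 4 of the myofiber-associated 48 hr group, the pooled array, stood far above every other array. The log2 means differed by -0.79 in dispersed cultures (SE 0.26, limma adjusted p = 0.0602). The myofiber-associated groups differed by -0.96 (SE 0.51, limma adjusted p = 0.187). Without the pooled array the myofiber-associated difference was -0.40 and that between the cultures at 48 hr went from 0.63 to 0.07. The summed signal of 12 fibroblast genes in the pooled array was 273210, against 125210 to 149322 in the 3 other arrays of the group, and its part in the Slc7a11 signal was not tested.

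**Figure D2:**
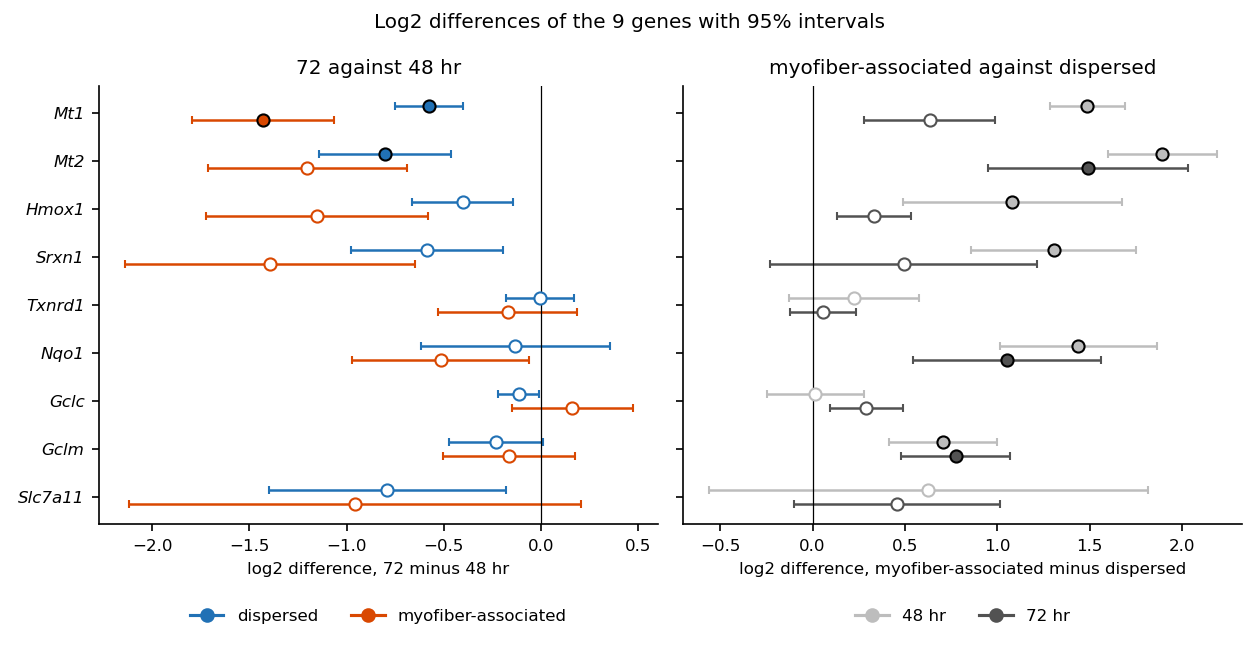
Log2 differences of the 9 genes (horizontal axis) with 95% intervals from limma, on the left for 72 minus 48 hr in each culture and on the right for myofiber-associated minus dispersed at each time, with filled points where the adjusted p was under 0.01 and open points elsewhere. Mt1 and Mt2 are filled on the left, Mt2 only in dispersed cultures, and 6 genes are filled at 48 hr and 3 at 72 hr on the right.

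Time and slide row could be separated, since each row of a slide held 2 arrays of each time. Within the rows, Mt1 was lower at 72 hr by -0.58 and -0.57 in dispersed and by -1.60 and -1.26 in myofiber-associated cultures. Mt2 gave -0.77 and -0.83, then -1.38 and -1.03, and Hmox1 gave -0.39 and -0.41, then -0.96 and -1.34. The 72 hr mean was below the 48 hr mean in the first and the second row for 9 and 8 of the 9 genes in dispersed cultures and for 8 and 8 in myofiber-associated cultures.

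The 2 probes of Mt1 did not give the same pattern. The dimmer one is annotated to another Mt1 transcript and begins 321 bases before the brighter one on chromosome 8 of the mouse build mm9, at chr8:96703844-96703903 against chr8:96704165-96704224. The dimmer Mt1 probe gave 7.21, 7.40, 7.04 and 7.09 in dispersed 48 hr arrays, 7.04, 6.87, 6.59 and 6.65 at 72 hr, 9.87, 9.55, 9.63 and 11.11 in myofiber-associated 48 hr arrays and 10.34, 9.67, 10.51 and 10.05 at 72 hr. Its myofiber-associated times overlapped, with a log2 difference of 0.10 (95% interval -0.70 to 0.91, limma adjusted p over probes = 0.848), where the brighter Mt1 probe fell by 1.43. It was 7.24-fold higher in myofiber-associated myoblasts at 48 hr (limma adjusted p over probes = 0.000178) and 10.2-fold higher at 72 hr (limma adjusted p over probes = 1.57e-05). With the mean of both probes in place of the brighter one, the Mt1 difference in myofiber-associated cultures was -0.66 (adjusted p = 0.0297) and that between the cultures' changes 0.18 (adjusted p = 0.551). Both calls thus hold for the brighter probe alone.

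The 2 probes of Hmox1 moved alike. The brighter one lies near the end of the transcript, and the dimmer one in the coding sequence, at base 324 of the transcript and at chr8:77620797-77620856 of mm9 on the plus strand. The dimmer probe is shown because it reads the coding part of the gene.
Hmox1 dimmer probe: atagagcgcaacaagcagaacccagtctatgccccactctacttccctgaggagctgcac
It gave 11.77, 12.11, 11.88 and 11.57 in dispersed 48 hr arrays, 11.54, 11.51, 11.33 and 11.03 at 72 hr, 12.02, 13.44, 12.71 and 13.12 in myofiber-associated 48 hr arrays and 11.50, 11.50, 11.50 and 11.48 at 72 hr. The 72 hr arrays again lay below all 48 hr arrays in each culture, and replicate 1 was again the low one of the myofiber-associated 48 hr group. The log2 differences between the times were -0.48 and -1.33, against -0.40 and -1.15 for the brighter Hmox1 probe, with limma adjusted p over probes of 0.0447 and 0.0138.

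**Figure D3:**
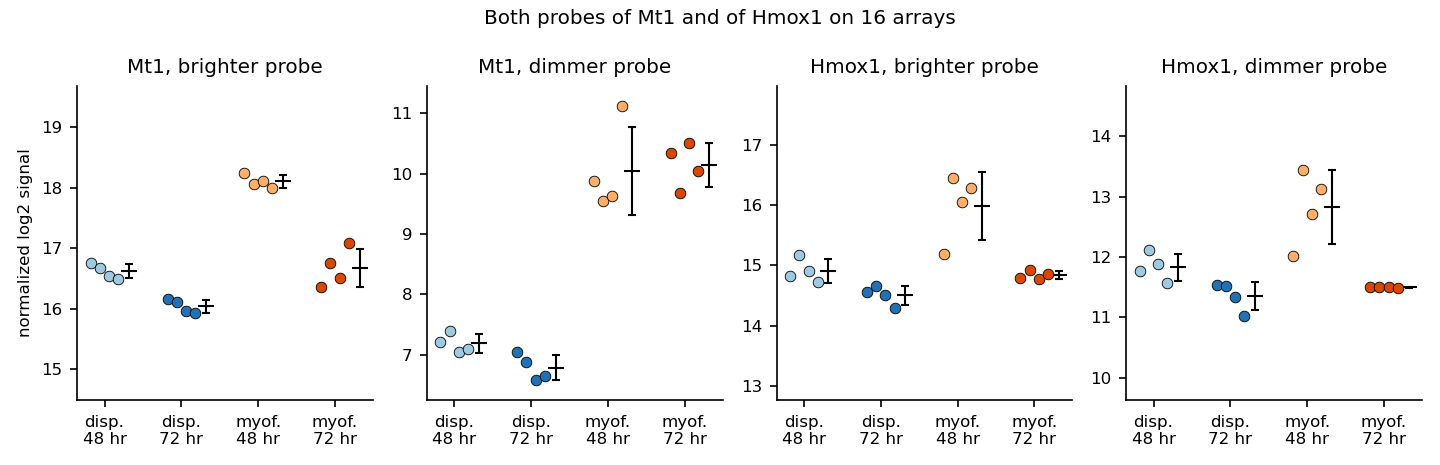
Normalized log2 signal (vertical axis, every panel spanning the same log2 range) of the brighter and dimmer probes of Mt1 and Hmox1 on the 16 arrays, with 1 point per array and the mean ± SD of 4 arrays. The dimmer Mt1 probe lay at 9.55 to 11.11 in both myofiber-associated groups, where the brighter one fell, while both Hmox1 probes were lower at 72 hr.

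Adult fiber markers moved with several members. The labels describe the stripped preparations as free of fiber RNA. All 12 of 12 were called higher in myofiber-associated than in dispersed myoblasts at 48 hr and 11 of 12 at 72 hr, with median log2 differences of 6.11 and 5.45. Between the times the markers' median log2 difference was -1.36 in dispersed cultures, where 6 of 12 were called lower. It was -2.01 in myofiber-associated cultures, where 1 was called lower and 12 were lower at an unadjusted limma p under 0.05. Of all genes 13.7% and 5.48% were called, and in myofiber-associated cultures at least 4585 of 20317 passed the unadjusted threshold in either direction. Among the myofiber-associated 72 hr arrays the log2 summed signal of these fiber markers was 18.77, 20.17, 18.20 and 20.49. Replicates 2 and 4 were thus high, the arrays in which Mt1, Mt2, Srxn1, Nqo1 and Gclm were also highest. Over the deviations of the 8 myofiber-associated arrays from their group means, Pearson's r with this sum was 0.90 for Mt2, 0.87 for Srxn1, 0.86 for Mt1, 0.83 for Gclm and 0.75 for Nqo1. It was 0.27 for Txnrd1, -0.05 for Hmox1, -0.40 for Slc7a11 and -0.67 for Gclc. In the 8 dispersed arrays, at a summed marker signal far lower, r was 0.88 for Mt1, 0.87 for Gclm, 0.83 for Mt2 and 0.81 for Nqo1. It was 0.80 for Srxn1, 0.78 for Txnrd1, 0.55 for Slc7a11, 0.32 for Hmox1 and -0.14 for Gclc. Sums of other marker lists moved with some members too, and not all of these values are printed. With the sum of 12 myoblast markers r was -0.84 for Hmox1, -0.74 for Srxn1, -0.72 for Mt2 and -0.67 for Mt1 in the dispersed arrays. In the myofiber-associated arrays it was -0.16, 0.25, 0.35 and 0.23 for these genes. With the fibroblast sum r was 0.91 for Mt2, 0.91 for Srxn1 and 0.89 for Mt1 in the dispersed arrays, but 0.06, -0.05 and 0.15 in the myofiber-associated arrays. For Slc7a11 it was 0.76 in the dispersed arrays and 0.84 in the myofiber-associated arrays. With the sum of 8 mural cell markers in the myofiber-associated arrays, r was -0.90 for Mt2, -0.84 for Srxn1, -0.82 for Mt1 and -0.79 for Gclm. It was -0.58 for Nqo1 and -0.33 for Txnrd1, but 0.77 for Gclc, 0.64 for Slc7a11 and 0.07 for Hmox1. The brightest probes weigh most in this sum, at 72 hr those of Notch3 (12.34) and Acta2 (12.15). Notch3, which the paper also lists among self-renewal genes, was called higher at 72 hr in these cultures (1.49), and Myh11 lower (-1.58). This sum is thus not a measure of mural cells alone. With the endothelial sum r was -0.88 for Mt1 and -0.83 for Mt2 in the dispersed arrays, but -0.06 and -0.16 in the myofiber-associated arrays. These values describe 8 arrays that share a slide and a normalization, and the part of RNA of these other cells in the members' signals was not tested. Endothelial markers fell between the times in both cultures, as Mt1 did: 11 of 12 were called lower in dispersed cultures (median -1.47) and 8 of 12 in myofiber-associated cultures (median -2.25). Between the cultures 11 of 12 were called lower in myofiber-associated myoblasts at 48 hr, the other direction from the members, with a summed signal of 22280 to 48767 against 129820 to 178005 in dispersed arrays. Of 11 tested fibroblast markers, 4 were called lower and 1 higher at 72 hr in myofiber-associated cultures (median -1.16), and 1 lower and 1 higher in dispersed cultures (median -0.05). Of 6 erythroid markers 3 were not well above background in any group, and 2 were tested. Hba-a1 was called lower at 72 hr in dispersed cultures (-1.71, limma adjusted p = 0.00677) and in myofiber-associated cultures (-1.49, limma adjusted p = 0.000995). Slc4a1 was called in neither. With the erythroid sum r was 0.83 for Mt1 and 0.82 for Nqo1 in the myofiber-associated arrays, and -0.61 and -0.35 in the dispersed arrays. Spearman's rank correlation in the myofiber-associated arrays was 0.76 and 0.71. That log2 sum was low, at 6.82, 6.90, 6.84 and 8.32 in the myofiber-associated 72 hr arrays. Replicate 4, the high one, was also the highest of that group for Mt1 and Nqo1, and r without it was not computed.

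**Figure D4:**
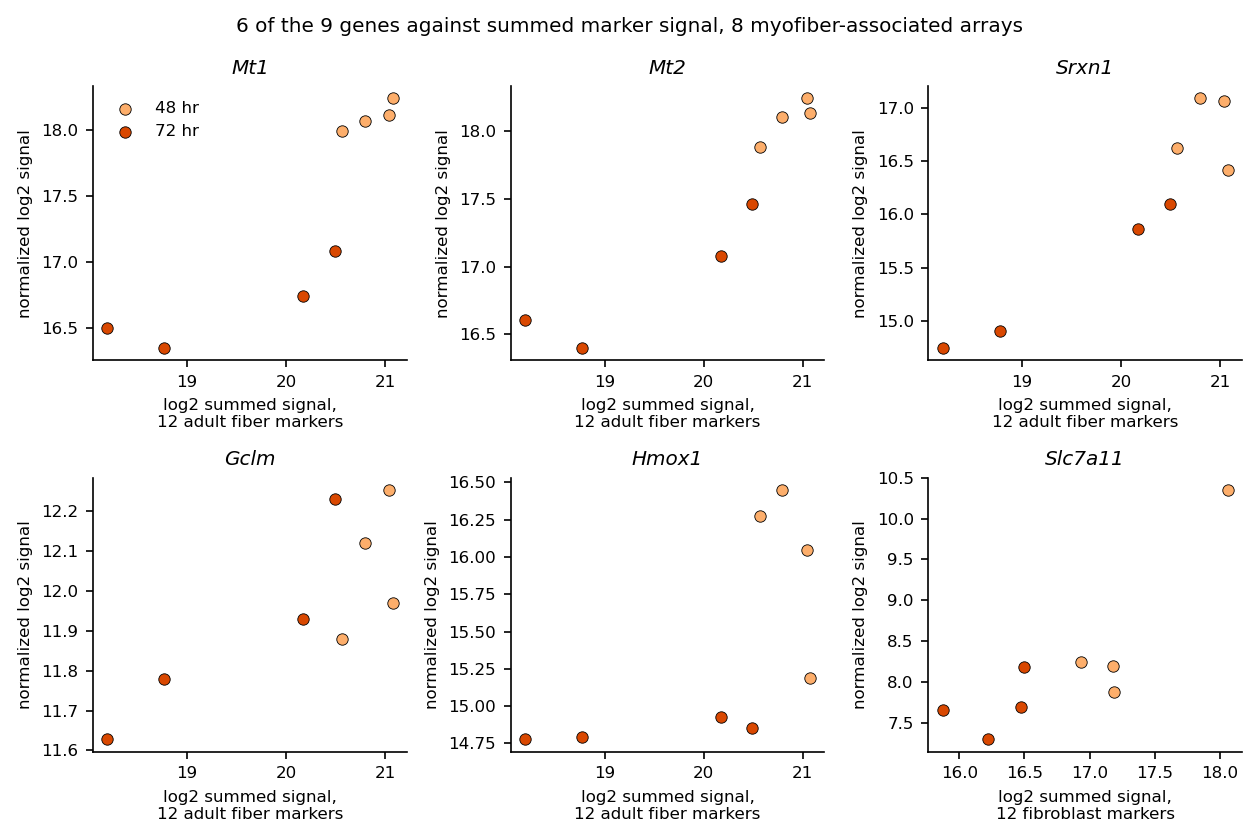
Normalized log2 signal of 6 of the 9 genes (vertical axis) in the 8 myofiber-associated arrays against the log2 summed signal of 12 adult fiber markers or, for Slc7a11, of 12 fibroblast markers (horizontal axis), with 1 point per array and color by time. For Mt1, Mt2, Srxn1 and Gclm the 72 hr arrays with marker sums of 20.17 and 20.49 lay above those at 18.77 and 18.20, and for Hmox1 the 72 hr arrays lay within 14.78 to 14.92.

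Over the deviations of the 16 arrays from their group means, Pearson's r was 0.96 for Mt1 with Mt2. Among Mt1, Mt2, Srxn1, Gclm and Nqo1 the other 9 pairs had an r from 0.74, for Nqo1 with Srxn1 and with Gclm, to 0.88, for Srxn1 with Mt2 and with Gclm. Pairs that held Hmox1, Gclc, Txnrd1 or Slc7a11 ranged more widely, from -0.67, for Gclc with Mt1, to 0.75, for Txnrd1 with Gclm. With Mt1, r was -0.08 for Hmox1 and -0.11 for Slc7a11. Over the normalized signals of the 16 arrays, which fall into the 2 cultures, so that r rests largely on that split, the 3 genes most like Mt1 were Tmco4 (r = 0.985), Camta1 (0.983) and Pip5k1a (0.979). For Mt2 they were Plin4 (0.993), Pip5k1a (0.992) and Cd68 (0.988), and for Srxn1 Nfx1 (0.979), Ndel1 (0.961) and Cdkl1 (0.959). For Hmox1 they were Hipk1 (0.933), Map3k8 (0.931) and Nfx1 (0.909). For Nqo1 they were Nr4a1 (0.958), Tuba8 (0.957) and Pgam2 (0.956), and for Gclm Trdn (0.966), Cox6a2 (0.964) and Cox8b (0.964). For Gclc they were Ypel5 (0.899), Srsf5 (0.886) and Tnrc18 (0.854), for Txnrd1 Sertad1 (0.867), Cd5 (0.851) and Gk5 (0.836), and for Slc7a11 C3 (0.915), Slc37a1 (0.914) and Rspo1 (0.875).

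Of 6 factors that act on the members, only Keap1 was called between the times, and only in dispersed cultures. Nfe2l2, which encodes NRF2, differed by 0.10 between the times in dispersed cultures and by -0.23 in myofiber-associated cultures, and neither was called. Keap1 fell by 0.34 in dispersed cultures (SE 0.05, limma adjusted p = 0.00298), where the myofiber-associated groups differed by -0.30 (limma adjusted p = 0.301). Bach1, a heme-sensing repressor of Hmox1, differed by -0.03 and by -0.75 (limma adjusted p = 0.0477) and was higher in myofiber-associated myoblasts at 48 hr by 0.94 (SE 0.16, limma adjusted p = 0.00128). Mtf1 differed by 0.21 and -0.31, and Nr3c1, the glucocorticoid receptor, by -0.22 and -0.69, none of them called. Atf4, which drives amino acid stress genes including Slc7a11, differed by -0.03 and -0.29 between the times and was higher in myofiber-associated myoblasts at 48 hr by 0.39 (SE 0.07, limma adjusted p = 0.00174). Of 13 tested NRF2 regulators, 1 was called lower in dispersed cultures, or 7.69% where 13.7% of all genes were called. None was called in myofiber-associated cultures (8 of 13 at an unadjusted limma p under 0.05, 7 of them lower). Of all genes there 5.48% were called, and at least 4585 of 20317 passed the unadjusted threshold in either direction. At 48 hr the myofiber-associated signal was called higher for 7 of the 13 and lower for 1, or 61.5% where 43.2% of all genes were called.

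Other NRF2 targets gave calls in both directions. Of 31 tested, 4 rose and 2 fell in dispersed cultures (median -0.07) and 1 fell in myofiber-associated cultures (median -0.03). These were 19.4% and 3.23% of the list, where 13.7% and 5.48% of all genes were called. In dispersed cultures Me1, malic enzyme, rose by 0.56 (SE 0.06, limma adjusted p = 0.000507), Gstm1 by 0.55 and Idh1 by 0.46, while the glutathione transferases Gsta3 and Gsta2 fell by 1.57 and 1.44. In myofiber-associated cultures Gsta4 fell by 1.13 (SE 0.20, limma adjusted p = 0.00885). At 48 hr 9 of the 31 were called higher and 5 lower in myofiber-associated myoblasts, or 45.2% of the list, where 43.2% of all genes were called. Their median was 0.06, against a median of 1.08 for the 9 members.

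Of 30 other antioxidant enzymes, 2 rose and 3 fell in dispersed cultures and 2 rose and 1 fell in myofiber-associated cultures. These were 16.7% and 10% of the list, where 13.7% and 5.48% of all genes were called. Sod3, the extracellular superoxide dismutase, fell in both, by 1.29 (SE 0.19, limma adjusted p = 0.00194) and by 1.97 (SE 0.24, limma adjusted p = 0.00236). Gpx3, a secreted glutathione peroxidase, rose in both, by 0.41 (SE 0.07, limma adjusted p = 0.00349) and by 1.14 (SE 0.20, limma adjusted p = 0.00837). In dispersed cultures Prdx2 rose by 0.30, Selenop, on the array as Sepp1, fell by 1.33, and Txnip, an inhibitor of thioredoxin, fell by 0.83, and in myofiber-associated cultures Sesn3 rose by 1.13.

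Among 22 genes of cystine supply and ATF4, 6 fell in dispersed cultures, among them Atf3 by 1.02, Vldlr by 0.54 and Chac1, a glutathione-degrading enzyme, by 0.46, and 1 fell in myofiber-associated cultures, Vldlr by 2.36. Of 18 heme and iron genes 3 fell in dispersed cultures, the iron exporter Slc40a1 by 1.42, Blvra, which reduces the biliverdin that heme oxygenases make, by 0.29 and Hmox2, the constitutive heme oxygenase, by 0.21. None was called in myofiber-associated cultures, where 3 were higher and 4 lower at an unadjusted limma p under 0.05. At least 4585 of all 20317 genes passed that threshold there. Among 24 metal-handling genes, which hold Mt3 and Mt4, the zinc importer Slc39a6 rose by 0.37 and the copper chaperone Ccs by 0.18 in dispersed cultures, where the zinc importer Slc39a4 fell by 0.78. None was called in myofiber-associated cultures, where 6 were higher and 4 lower at an unadjusted limma p under 0.05. At 48 hr 2 of the 24 were called higher and 11 lower in myofiber-associated myoblasts, with a median of -0.37, the other direction from Mt1 and Mt2. That was 54.2% of the list, where 43.2% of all genes were called. Between the times in dispersed cultures, 27.3% of the cystine and ATF4 list, 16.7% of the heme and iron list and 12.5% of the metal-handling list were called. The share of all genes there was 13.7%.

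Of 14 glucocorticoid-induced genes, 3 fell in dispersed cultures, Zbtb16 by 1.61, Klf9 by 0.85 and Sgk1 by 0.68. The 3 were 21.4% of the list, where 13.7% of all genes were called. None was called in myofiber-associated cultures, where their median was -0.73 and 8 were lower at an unadjusted limma p under 0.05. Of all genes there 5.48% were called, and at least 4585 of 20317 passed the unadjusted threshold in either direction. At 48 hr the myofiber-associated signal was called higher for 6 of the 14 and lower for 4, and at 72 hr for 7 and 4. Of all genes 43.2% and 27.1% were called at these times. Of 15 heat shock genes 1 rose in dispersed cultures, Hspb1 by 0.44, or 6.67% of the list where 13.7% of all genes were called. None was called in myofiber-associated cultures, where 5.48% of all genes were called. There 1 was higher and 3 lower at an unadjusted limma p under 0.05. At 48 hr the myofiber-associated signal was called higher for 6 of the 15 and lower for 3, and at 72 hr for 4 and 3. These were 60% and 46.7% of the list, where 43.2% and 27.1% of all genes were called.

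**Figure D5:**
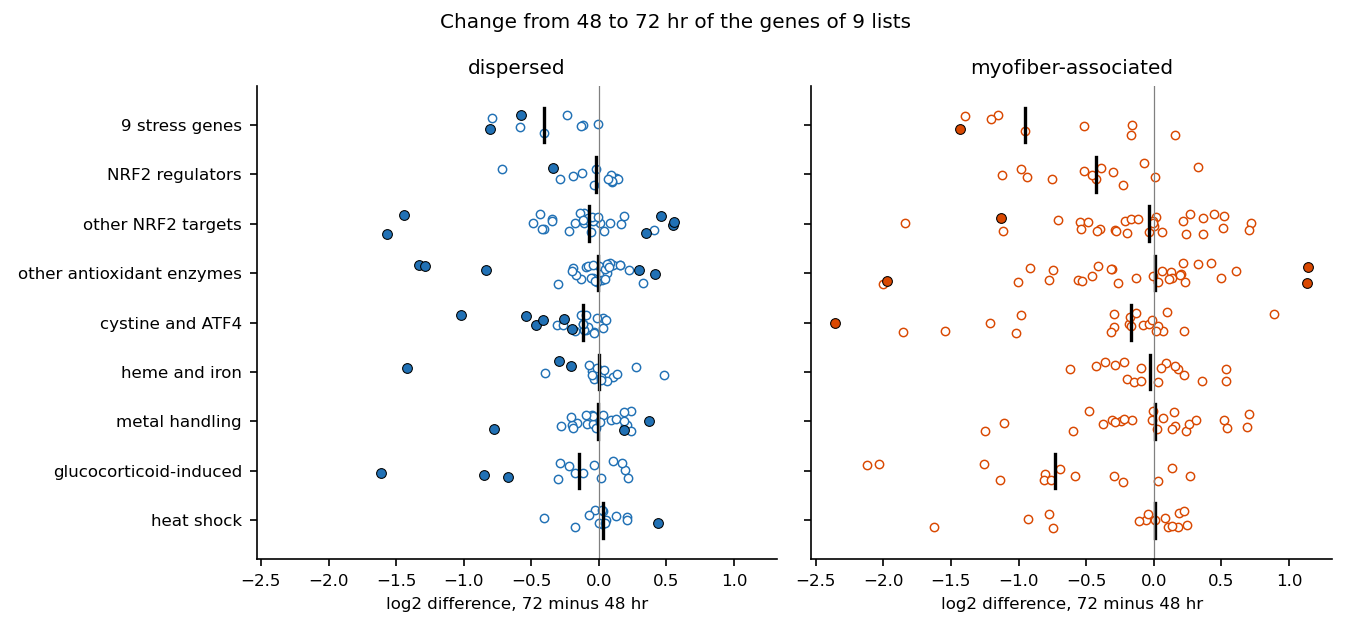
Log2 difference of 72 minus 48 hr (horizontal axis) for each gene of the 9 stress genes and of the 8 related lists in dispersed (left) and myofiber-associated (right) cultures, with filled points where limma's adjusted p was under 0.01, open points elsewhere, and a black bar at the list's median (points are spread vertically for legibility only). The medians of the 9 stress genes were -0.40 and -0.96, and those of the other NRF2 targets -0.07 and -0.03.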

How the data were processed

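RNA of the 16 samples was labeled with Cy3 and hybridized to Agilent one-color arrays, 8 per slide. The deposited scanner files hold the authors' Feature Extraction output, of which the processed signal, an intensity after background subtraction, was used here. A deposited series table holds the authors' log ratios per probe, which the methods describe as set against the 48 hr arrays of the same culture. The deposited ratios were taken as log2, a base the sources do not state, because their changes between times had a Pearson's r of 0.988 (dispersed) and 0.985 (myofiber-associated) with those computed here, at slopes of 0.918 and 0.934. They served as an alternative.

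After the study's methods, log2 signals were fitted by loess (span 0.3, 4 iterations) to the mean of each culture's 4 arrays at 48 hr and then quantile normalized over 16 arrays. Outlier spots were left out, identical probes were averaged, and each gene was read from its brightest probe, of which 20317 had a median log2 signal of at least 5. Groups came from the labels of culture and time, with replicates numbered in accession order. The methods name samr, which was not installed, so limma 3.58.1 (R 4.3.3) was fitted to the 8 arrays of each comparison and to all 16 for the difference between cultures, with p-values adjusted by Benjamini-Hochberg across the 20317 genes and calls made under 0.01. The test was checked on simulated data. An exact permutation of 4 against 4 arrays cannot give a two-sided p below 0.0286. In the leave-one-out fits the array was dropped from the fit, not from the normalization. Alternatives changed the background, scaling, filters, probe rule, slide row, fit and source of values.

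The text names all 9 members, the 3 genes most like each in signal, up to 3 called genes per direction of each related list within each culture, and the factors Nfe2l2, Keap1, Bach1, Mtf1, Atf4 and Nr3c1. The members and lists were chosen with earlier results of these data known. Promoter searches and figures used Python 3.11.15 with matplotlib 3.10.9, numpy 2.4.6 and pandas 2.3.3. The array number limits the precision.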

Additional observations from a re-analysis of the deposited data

Results flagged for a closer look

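In Slc7a11, replicate 4 of the myofiber-associated 48 hr group, the pooled array, stood apart from its 3 companions at 10.35 against a nearest value of 8.24, a gap of 0.854 of the group's range. Of 44 groups of 4 arrays tested in this way over the 11 probes, 1 was singled out, where chance gives about 1 in 20 (2.2 expected).

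The change from 48 to 72 hr differed between the cultures for Mt1 by 0.85 (dispersed minus myofiber-associated), for the brighter probe. Of the genes of the related lists named above, the difference was -1.95 for Slc40a1, which fell in dispersed cultures and was higher at 72 hr by its mean in myofiber-associated cultures (8.77 at 48 hr and 9.31 at 72 hr), and 1.27 for Me1, which rose in dispersed cultures and whose means in myofiber-associated cultures were 14.31 and 13.59. Each of these came from limma's test of the difference itself.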

How the results depend on the processing

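No paired analysis was possible because the groups compared share fewer than 2 replicate numbers in the labels. With 2 of the 9 genes called between the times in dispersed cultures, the count was 1 with upper-quartile scaling, without a filter on low signal and in one fit of all 16 arrays, and 4 in the deposited table. In myofiber-associated cultures, with 1 called, it was 2 with normexp background correction, 0 with averaged probes and 4 in one fit of 16 arrays and in the deposited table. For the difference between cultures, with 1 called, it was 0 with upper-quartile scaling, no filter, a well-above-background filter, averaged probes or slide row as a covariate, and 2 in the deposited table. Among all genes, 2784 called in dispersed cultures became 999 in one fit of 16 arrays. In myofiber-associated cultures 1113 became 468 without the filter, 571 with slide row, 5780 in one fit and 3787 in the deposited table, and for the difference 701 became 409 without the filter and 3823 in the deposited table. The cause was not tested. Between cultures, 5 to 6 members were called at 48 hr and 2 to 4 at 72 hr under these settings, against 6 and 3, and the counts of all genes moved by less than 1.5 times. With 1 array left out, the members called numbered 1 to 2 of 1679 to 2507 genes in dispersed cultures, 1 to 2 of 232 to 1991 in myofiber-associated cultures, 0 to 1 of 295 to 2368 for the difference, 5 to 6 of 6374 to 11144 at 48 hr and 2 to 4 of 3315 to 5627 at 72 hr.

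The sign turned only in values near 0 or resting on 1 array. Txnrd1 in dispersed cultures went to 0.0695 with upper-quartile scaling and lay at -0.0709 to 0.0279 with 1 array left out. The difference between cultures then lay at -0.161 to 0.0443 for Gclm and -0.394 to 0.429 for Slc7a11, and Gclc at 48 hr lay at -0.0615 to 0.117, and at -0.0018 with normexp.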
